A study of Mus musculus with 4 samples.

Results

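The genes described here are 10 members and partners of the CD300, Siglec and TREM families of myeloid immunoreceptors, taken from the table by their symbols: Cd300a, Cd300lb, Cd300ld, Cd300lf, Sirpa, Siglece, Cd33, Cd22, Trem1 and Tyrobp. They are 10 of the 23995 gene symbols in the deposited table, and all 10 belong to the 10240 expressed genes, those that reached an FPKM (fragments per kilobase of transcript and 1000000 mapped fragments) of 1 in any library. RNA from blood monocytes was sequenced in 4 libraries, 1 for each combination of genotype and monocyte subset. The control mice were Rbpj +/+ Lyz2 cre/cre, titled wild type in the labels with the genotype Lyz2-Cre, and the RBP-J-deficient mice were Rbpj fl/fl Lyz2 cre/cre, so both carried Lyz2-Cre. Lyz2 drives Cre in myeloid cells at large, including granulocytes and macrophages, and the deletion was therefore not limited to the sorted monocytes. No treatment is labelled, and the mice were 7 to 12 weeks old in the study's methods, and their number per library and their strain in this experiment are not given in the sources used here. The subsets were Ly6Clo monocytes, which patrol the vessel wall, and Ly6Chi monocytes, which enter inflamed tissue. The question was how loss of RBP-J, the DNA-binding factor of Notch signalling, altered gene expression in each subset.

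Each group is a single library, so no difference below has a replicate check and none was tested. Rbpj itself stood at 8.30 FPKM in control and 2.43 in RBP-J-deficient Ly6Clo monocytes, and at 14.4 and 2.85 in Ly6Chi monocytes. Markers of the monocytes themselves also differed between the genotypes in Ly6Clo monocytes. Csf1r, the receptor for CSF-1, was at 406.7 in control and 157.8 in RBP-J-deficient Ly6Clo monocytes, a log2 ratio of (FPKM + 1) of -1.36, and at 306.7 and 213.0 in Ly6Chi monocytes. The chemokine receptor gene Ccr2 was at 59.2 and 473.7 in Ly6Clo and at 711.6 and 624.3 in Ly6Chi monocytes. Ly6c2, which encodes Ly6C, was at 10.9 and 78.3 in Ly6Clo against 2013 and 1594 in Ly6Chi monocytes. Of 9 monocyte markers, all expressed, these 3 were the ones at least 2-fold apart between the genotypes in Ly6Clo monocytes. There 2 were higher and 1 lower, beside 8.97% and 11.1% of all genes. In Ly6Chi monocytes 1 was higher and 0 lower, beside 2.64% and 4.56%. It was Fcgr4, at 73.6 and 176.1, a ratio of 1.25. Emr4 and Spn each had a Ly6Chi ratio of 0.87. These 3 were higher there at any size, and the other 6 were lower. The 9 summed to 2314 and 2308 in Ly6Clo and 3463 and 3057 in Ly6Chi monocytes. How far the members moved with the make-up of the sorted cells was not tested. The FPKM of all genes summed to 711533 to 885652 per library and was highest in RBP-J-deficient Ly6Clo monocytes. The estimate of Actb failed, by its mark in the table, and gave 0 in RBP-J-deficient mice of both subsets, whereas all 60 rows of the members carry the mark of a completed estimate. Read counts are not used here, and the depth behind these values is unknown. In whole-population RNA, fewer cells that express a gene and less RNA per cell cannot be told apart.

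Paired immunoreceptors come in inhibitory and activating forms with related outer domains. Inhibitory forms carry a tyrosine motif, the ITIM, in their tails, which recruits the phosphatases SHP-1 (Ptpn6) and SHIP-1 (Inpp5d). Activating forms have short tails and pair with adaptors that carry the ITAM motif, DAP12 (Tyrobp) or the Fc receptor gamma chain (Fcer1g), which signal through Syk. Siglecs bind sialic acid on glycans, CD300 receptors bind lipids such as phosphatidylserine that dying cells expose, SIRPα binds CD47, and TREM-1 amplifies inflammatory responses of monocytes and neutrophils.

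RefSeq promoter windows of GRCm38.p6, from 250 bases before to 50 bases after a gene's start, were found for 8 of the 10 members, all but Sirpa and Tyrobp. They are shown because RBP-J is a DNA-binding factor. The core of its motif is TGGGAA, and windows were searched on both strands, so that a gene may also carry it as TTCCCA. It was present in 3 of the 8 windows and in 25.6% of all 32851 windows. The 3 that hold it belong to Cd22, the member with the lowest genotype ratio in Ly6Clo monocytes, to Cd300ld, the one member with a higher level there in RBP-J-deficient mice, and to Cd300a. The windows lie at chr7:30878979-30879278 on the minus strand for Cd22, chr11:114989837-114990136 on the minus strand for Cd300ld and chr11:114889791-114890090 on the plus strand for Cd300a, and capitals mark the core.
Cd22: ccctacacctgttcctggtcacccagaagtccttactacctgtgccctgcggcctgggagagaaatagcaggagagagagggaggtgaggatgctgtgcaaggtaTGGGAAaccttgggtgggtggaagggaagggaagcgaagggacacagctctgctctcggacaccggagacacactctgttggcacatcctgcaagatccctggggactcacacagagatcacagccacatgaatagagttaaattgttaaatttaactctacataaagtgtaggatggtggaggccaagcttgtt
Cd300ld: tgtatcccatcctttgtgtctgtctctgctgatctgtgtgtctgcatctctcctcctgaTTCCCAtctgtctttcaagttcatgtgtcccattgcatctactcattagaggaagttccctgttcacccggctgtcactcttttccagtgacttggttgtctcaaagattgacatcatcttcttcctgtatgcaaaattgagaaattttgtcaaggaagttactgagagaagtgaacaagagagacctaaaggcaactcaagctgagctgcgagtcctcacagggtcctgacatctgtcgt
Cd300a: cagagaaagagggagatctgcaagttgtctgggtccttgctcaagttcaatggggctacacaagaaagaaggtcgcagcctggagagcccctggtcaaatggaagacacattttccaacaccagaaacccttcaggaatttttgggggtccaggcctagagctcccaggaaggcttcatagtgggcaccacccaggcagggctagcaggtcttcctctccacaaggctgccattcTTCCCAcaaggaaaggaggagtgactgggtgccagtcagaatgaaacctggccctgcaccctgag
Counted in bases from the start site, the core begins at -145 in Cd22, at -191 in Cd300ld and at -15 in Cd300a. It is read TGGGAA along the gene in Cd22 and TTCCCA in the others. The Cd22 window lies inside the deposited locus, which reaches to 30880342, so other start sites of the gene are not covered by it. Siglece, which had the next lowest ratio, has no copy of the core in its window at chr7:43660112-43660411 on the minus strand, and it is shown beside the windows above for comparison.
Siglece: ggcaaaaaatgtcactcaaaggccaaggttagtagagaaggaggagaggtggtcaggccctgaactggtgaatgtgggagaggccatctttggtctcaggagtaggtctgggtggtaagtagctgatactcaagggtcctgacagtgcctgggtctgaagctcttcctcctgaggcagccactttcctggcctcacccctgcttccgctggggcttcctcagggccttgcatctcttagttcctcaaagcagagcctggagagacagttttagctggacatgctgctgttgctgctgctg
A motif of PU.1, a factor of the myeloid lineage, was searched in the same way as GAGGAAG and its reverse complement. It was present in 5 of the 8 windows, those of Cd300a, Cd300ld, Cd300lf, Siglece and Cd33, against 13.6% of all windows. The Siglece window holds 2 copies, at -88 and -37. These matches describe the letters of the windows, and binding was not measured.

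RBP-J-deficient Ly6Clo monocytes had lower levels than control Ly6Clo monocytes for 9 of the 10 genes, and 2 of these, Cd22 and Siglece, were at least 2-fold lower. Differences are given as the log2 ratio of (FPKM + 1), which understates the difference of genes with low values. No member was at least 2-fold higher. Of all 10240 genes, 8.97% were at least 2-fold higher, 11.1% at least 2-fold lower and 48.2% lower at any size. The median of the 10 ratios was -0.87, against 0.02 over all genes. In Ly6Chi monocytes 1 member, Cd300ld, was at least 2-fold higher in RBP-J-deficient mice and 0 were at least 2-fold lower, against 2.64% and 4.56% of all genes. There 7 members were lower at any size, against 49.3% of all genes, and the median was -0.18, against 0.00.

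**Figure D1:**
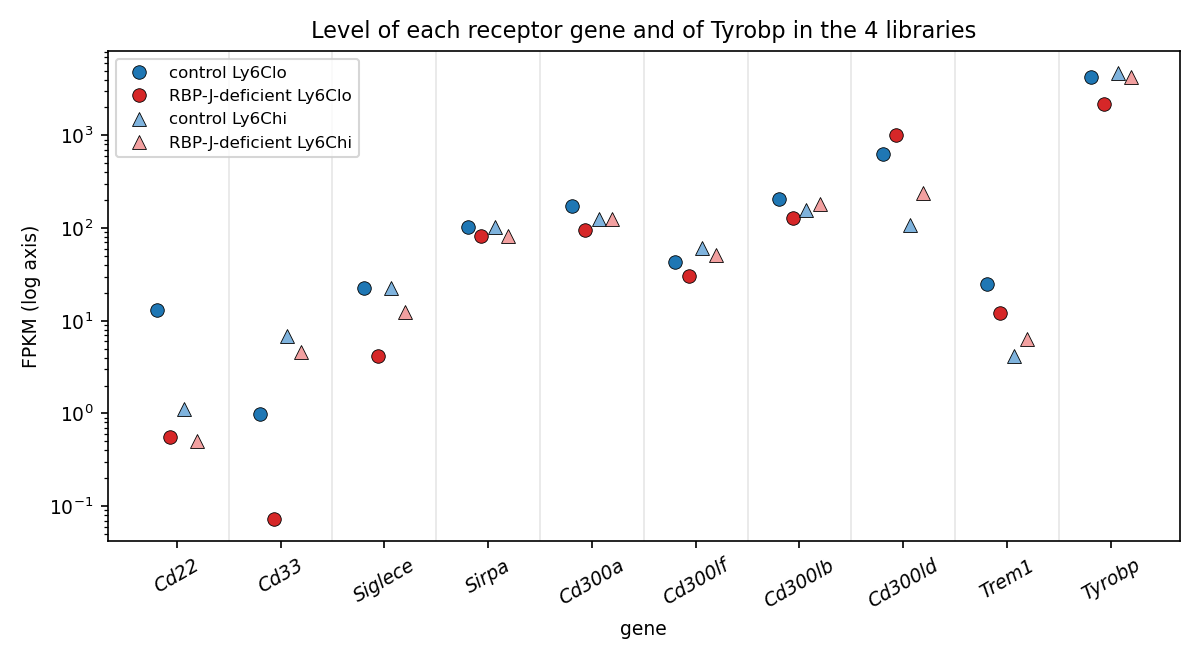
FPKM on a log axis of the 10 genes in each of the 4 libraries, with circles for Ly6Clo and pale triangles for Ly6Chi monocytes, blue for control and red for RBP-J-deficient mice. The levels run from 0.0725 for Cd33 in RBP-J-deficient Ly6Clo monocytes to 4702 for Tyrobp in control Ly6Chi monocytes, and each point is 1 library.

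The number of lower calls in Ly6Clo monocytes depends on how the libraries are scaled. When FPKM was rescaled to sum to 1000000 in each library (TPM), 7 members in place of 2 were at least 2-fold lower in RBP-J-deficient Ly6Clo monocytes, beside 17.7% of all genes, and the median over all genes was shifted by -0.24. The 5 added were Trem1, Tyrobp, Cd300a, Cd33 and Cd300lb, with ratios of -1.26, -1.27, -1.15, -1.15 and -1.01. On the TPM scale the share of higher among all 2-fold calls was 22.9%, against 44.8% on the FPKM scale, on which all other values are given unless another is named. Cd22 and Siglece were past 2-fold on both scales, and Cd300ld was higher on both.

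Siglec-E, an ITIM-bearing Siglec of neutrophils, monocytes and macrophages, lies on the minus strand of chromosome 7 between 43651070 and 43660161. Siglece stood at 22.4 FPKM in control and 4.20 in RBP-J-deficient Ly6Clo monocytes, and at 22.5 and 12.6 in Ly6Chi monocytes. The subsets were alike in control mice, and the RBP-J-deficient library was the lower one in both subsets. The log2 ratio was -2.17 in Ly6Clo and -0.79 in Ly6Chi monocytes, 1.38 apart on the log2 scale, a difference that was not tested. In FPKM the level was 5.33-fold lower in Ly6Clo and 1.79-fold lower in Ly6Chi monocytes. Siglece lay at the 69.4th percentile of expressed genes in control Ly6Clo monocytes and at the 37.1st in RBP-J-deficient ones. Its level set against Sirpa in the same library, a measure that does not depend on the scaling of the library, was 0.217 in both control libraries, 0.0512 in RBP-J-deficient Ly6Clo and 0.153 in RBP-J-deficient Ly6Chi monocytes.

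CD33 is a sialic acid-binding receptor of the myeloid lineage, encoded next to Siglece on the minus strand of chromosome 7 between 43527456 and 43533171. Cd33 stood at 0.999 FPKM in control and 0.0725 in RBP-J-deficient Ly6Clo monocytes, and at 6.88 and 4.59 in Ly6Chi monocytes. Both Ly6Chi libraries were above both Ly6Clo libraries, and the RBP-J-deficient library was the lower in each subset. The log2 ratios of the genotypes were -0.90 and -0.50. The value in RBP-J-deficient Ly6Clo monocytes is near the lower end of what the library can show. Multiplied by transcript length in kilobases it was 0.172, which is 3.10 times the 2nd percentile of nonzero genes with a single transcript, against 36.6 to 370.4 times in the other libraries. No fold in FPKM is given for Cd33 for that reason.

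CD22 is best known as an inhibitory Siglec of B cells, where it dampens signals of the antigen receptor. Cd22, on the minus strand of chromosome 7 between 30865404 and 30880342, stood at 12.9 FPKM in control Ly6Clo monocytes, 0.563 in RBP-J-deficient Ly6Clo, 1.12 in control Ly6Chi and 0.502 in RBP-J-deficient Ly6Chi monocytes. The control Ly6Clo library stood alone, and the other libraries were all near 1 or below. The log2 ratio of the genotypes was -3.15 in Ly6Clo and -0.50 in Ly6Chi monocytes, and the FPKM in Ly6Clo monocytes was 23.0-fold lower in RBP-J-deficient mice. The 2 ratios were 2.66 apart, the widest gap among the 10 members, and the gap was not tested. The transcript shares 10.3% of its 50-base words with other genes, among them the antisense gene Gm29439 at the same locus, and the strand setting of the libraries is not given in the sources used here.

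B cell transcripts also differed between these libraries. Of 9 B cell markers, all were found in the table and 4 reached an FPKM of 1 anywhere. Cd79a, a chain of the antigen receptor complex, stood at 9.02 FPKM in control and 1.13 in RBP-J-deficient Ly6Clo monocytes, and at 0.699 and 1.42 in Ly6Chi monocytes. Ms4a1, which encodes CD20, had 3.27 and 0.0603 in Ly6Clo and 0.429 and 0.943 in Ly6Chi monocytes. Both were highest in control Ly6Clo monocytes, as Cd22 was. In Ly6Chi monocytes both were higher in RBP-J-deficient mice, whereas Cd22 was lower there. Cd79b was higher in RBP-J-deficient mice in both subsets, with 41.9 and 100.2 in Ly6Clo and 23.7 and 43.7 in Ly6Chi monocytes. Pax5, the factor that sets B cell identity, was listed at 0 in all libraries but RBP-J-deficient Ly6Chi, where it was at 0.0560. Fcrla was at 2.36, 2.76, 0.323 and 2.15 in the order control and RBP-J-deficient Ly6Clo, then control and RBP-J-deficient Ly6Chi. Fcer2a was at 0.772, 0, 0.274 and 0.999 in that order, and Ebf1, Blk and Cr2 were each below 0.2 in every library. The 9 markers summed to 57.7, 104.4, 25.6 and 49.3 in that order, and the 8 without Cd79b to 15.8, 4.12, 1.87 and 5.598. The part of B cells in the Cd22 value was not tested. Within each library the FPKM of Cd22 over that of Cd79a came to 1.43 in control and 0.497 in RBP-J-deficient Ly6Clo monocytes, and 1.60 and 0.353 in Ly6Chi monocytes. The FPKM of Cd22 over that of Ms4a1 lay in the other order in Ly6Clo monocytes, at 3.95 and 9.33, and was 2.61 and 0.533 in Ly6Chi monocytes. Cd22 was thus further below its control level than Cd79a in RBP-J-deficient Ly6Clo monocytes. The 9.33 rests on the Ms4a1 value of 0.0603, which is lower than the 0.0725 of Cd33 in that library. The order of Cd22 against Ms4a1 is therefore not read further.

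The genes whose profile over the 4 libraries was nearest to that of Cd22 were Itgax, Gpr31b and Nrarp. Likeness was measured as the Euclidean distance between log2(FPKM + 1) values centred on their mean over the libraries, at 0.54, 0.61 and 0.63. The nearest gene of every other member lay closer, from 0.01 for Cd300lf to 0.17 for Trem1. No gene was that close to Cd22. Itgax, which encodes CD11c, had an FPKM of 33.7, 3.10, 3.36 and 1.45 in the same order as above. Nrarp, a target and regulator of Notch signalling, had 10.3 in control Ly6Clo monocytes, is listed at 0 in RBP-J-deficient Ly6Clo monocytes, and had 0.716 and 0.767 in Ly6Chi monocytes. Only the 4 B cell markers that reached an FPKM of 1 were in the search, and none of them was among the nearest 3. The distance depends on the size of a difference as well as on its order. It therefore cannot tell how much of the Cd22 value came from B cells.

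**Figure D2:**
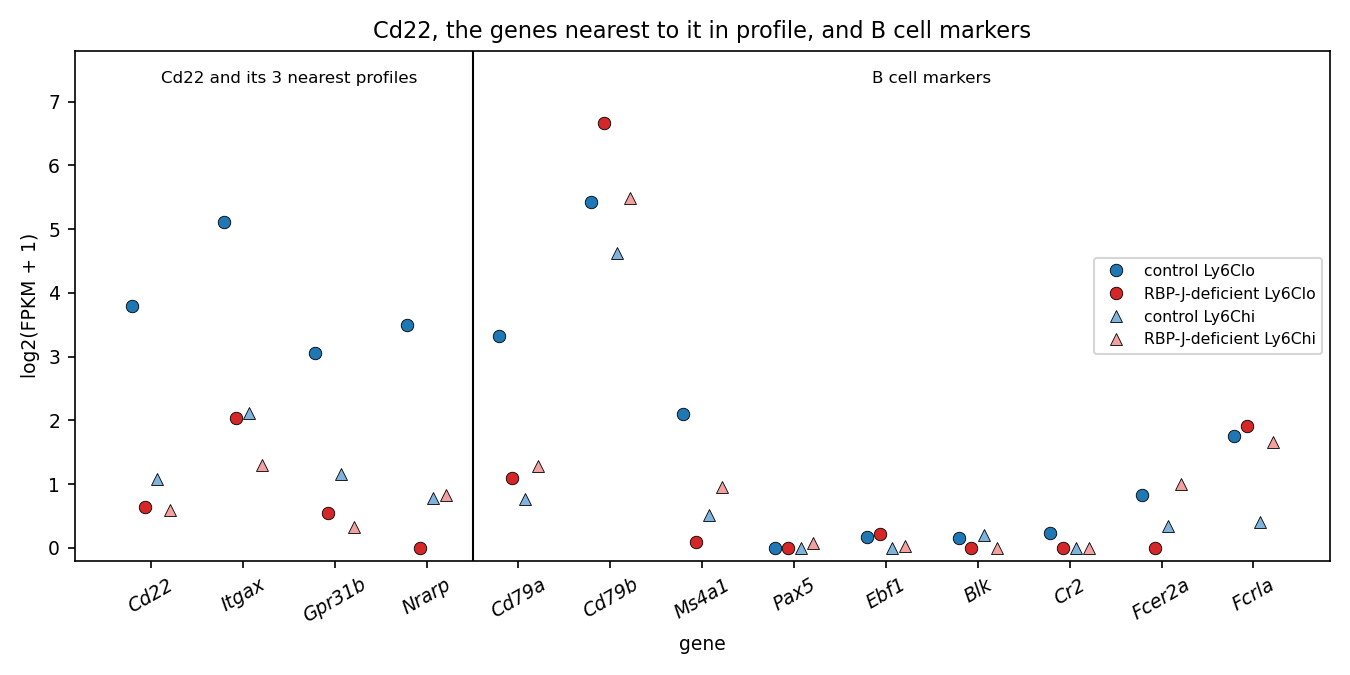
log2(FPKM + 1) in each of the 4 libraries for Cd22, for the 3 genes nearest to it in profile and for 9 B cell markers, with the same symbols for the libraries as in the plot of FPKM by gene. Cd22, Itgax, Gpr31b, Nrarp, Cd79a and Ms4a1 are highest in control Ly6Clo monocytes, and Cd79b is highest in RBP-J-deficient Ly6Clo monocytes.

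SIRPα, the ITIM-bearing receptor for the "do not eat me" ligand CD47, had the smallest spread of FPKM over the 4 libraries among the members. Sirpa, on the plus strand of chromosome 2 between 129592839 and 129632228, stood at 103.1 FPKM in control and 82.1 in RBP-J-deficient Ly6Clo monocytes, and at 103.4 and 82.0 in Ly6Chi monocytes. In FPKM the subsets were alike within each genotype, and the RBP-J-deficient libraries were the lower ones. The log2 ratio of the genotypes was -0.33 in both subsets, and the highest library was 1.26 times the lowest. On the TPM scale the genotype ratios were -0.63 in Ly6Clo and -0.43 in Ly6Chi monocytes. With the trend of GC content subtracted, as described below, they were -0.10 and -0.23. Ly6Clo over Ly6Chi in RBP-J-deficient mice was at 0.00, and at -0.21 and 0.21 under these settings. Its ligand gene Cd47 was at 463.9 and 489.0 in Ly6Clo and at 325.5 and 361.5 in Ly6Chi monocytes, a ratio of 0.08 and 0.15. The related Sirpb1a and Sirpb1b had ratios of -0.10 and -0.03 in Ly6Clo monocytes, and 0 of the 4 genes of this group were at least 2-fold apart between the genotypes. Of all genes, 8.97% were at least 2-fold higher and 11.1% lower in Ly6Clo, and 2.64% and 4.56% in Ly6Chi monocytes.

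CD300a and CD300lf are the ITIM-bearing members of the CD300 family, and both bind phosphatidylserine. Cd300a, on the plus strand of chromosome 11 between 114890041 and 114904651, stood at 173.0 FPKM in control and 95.7 in RBP-J-deficient Ly6Clo monocytes, and at 124.6 and 124.4 in Ly6Chi monocytes. The genotypes were alike in Ly6Chi monocytes, and the RBP-J-deficient Ly6Clo library was the lowest of the 4. The log2 ratio was -0.85 in Ly6Clo and -0.00 in Ly6Chi monocytes. Cd300lf had 43.5 and 30.3 in Ly6Clo and 60.3 and 51.5 in Ly6Chi monocytes, with ratios of -0.51 and -0.22. Both Ly6Clo libraries were below both Ly6Chi libraries. The deposited locus of Cd300lf, from 115091431 to 115162240 on chromosome 11, also covers Rab37 on the opposite strand, so reads of the genes may not have been separated.

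CD300lb and CD300ld are activating receptors that pair with ITAM adaptors, CD300lb with DAP12 and CD300ld with the Fc receptor gamma chain. Cd300lb, on the minus strand of chromosome 11 between 114922781 and 114934386, stood at 207.4 FPKM in control and 126.9 in RBP-J-deficient Ly6Clo monocytes, and at 158.4 and 180.0 in Ly6Chi monocytes. The RBP-J-deficient library was the lower one in Ly6Clo and the higher one in Ly6Chi monocytes. The log2 ratios were -0.70 and 0.18. Cd300ld, from 114982446 to 114989886 on the minus strand of the same chromosome, had 633.1 and 998.1 in Ly6Clo and 107.2 and 238.8 in Ly6Chi monocytes. The RBP-J-deficient library was the higher one in both subsets, and both Ly6Clo libraries were above both Ly6Chi libraries. The log2 ratios were 0.66 and 1.15, or 1.58-fold and 2.23-fold in FPKM. Cd300ld was the only member that was higher in RBP-J-deficient mice in both subsets, under the main scale, TPM and the GC correction alike.

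The make-up of the CD300 transcripts differed accordingly. Of the summed FPKM of the 4 CD300 members, Cd300ld held 59.9% in control and 79.8% in RBP-J-deficient Ly6Clo monocytes, and 23.8% and 40.2% in Ly6Chi monocytes. Cd300lb held 19.6% and 10.1% in Ly6Clo and 35.2% and 30.3% in Ly6Chi monocytes. The FPKM of Cd300ld over that of Cd300lb in the same library was 3.05 and 7.86 in Ly6Clo and 0.677 and 1.33 in Ly6Chi monocytes. These shares do not depend on the scaling of the library, and they are given per length as FPKM is. Between 2.76% and 3.89% of the 50-base words of Cd300a, Cd300ld and Cd300lf occur in other genes, among them other CD300 genes, so a small part of their reads may have been assigned between family members. The profile of Cd300ld was nearest to that of Sh2d1b1, an SH2 adaptor of the SLAM receptors, at a distance of 0.05. Sh2d1b1 had an FPKM of 144.9, 225.4, 22.8 and 53.4 in the order used above.

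TREM-1 has a short tail and signals through DAP12. Trem1, on the plus strand of chromosome 17 between 48232739 and 48246924, stood at 24.7 FPKM in control and 12.2 in RBP-J-deficient Ly6Clo monocytes, and at 4.19 and 6.37 in Ly6Chi monocytes. Both Ly6Clo libraries were above both Ly6Chi libraries, and the genotypes lay in opposite order in the subsets. The log2 ratio was -0.96 in Ly6Clo and 0.51 in Ly6Chi monocytes. The genes nearest to it in profile were Hfe, Scnn1a and Lair1, at distances of 0.17, 0.21 and 0.25. Lair1, an ITIM-bearing receptor for collagen, had an FPKM of 118.3 and 70.2 in Ly6Clo and of 25.8 and 42.2 in Ly6Chi monocytes.

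DAP12, the adaptor for TREM-1, CD300lb and several other receptors, had by far the highest level of the 10. Tyrobp, on the plus strand of chromosome 7 between 30413788 and 30417579, stood at 4293 FPKM in control and 2195 in RBP-J-deficient Ly6Clo monocytes, and at 4702 and 4281 in Ly6Chi monocytes. The RBP-J-deficient Ly6Clo library was the low one, and the other libraries were close to each other. The log2 ratio was -0.97 in Ly6Clo and -0.14 in Ly6Chi monocytes, just short of 2-fold in Ly6Clo. The ratios were -1.27 and -0.24 on the TPM scale. With the trend of GC content subtracted, as described below, they were weaker, at -0.79 and -0.06. Tyrobp ranked 16th, 40th, 16th and 20th among all genes in the order used above, so it stayed among the most abundant transcripts everywhere. The other ITAM adaptor of these receptors, Fcer1g, had 8889 and 12099 in Ly6Clo and 5250 and 6944 in Ly6Chi monocytes, with ratios of 0.44 and 0.40. The FPKM of Tyrobp over that of Fcer1g in the same library came to 0.483 in control and 0.181 in RBP-J-deficient Ly6Clo monocytes, and 0.896 and 0.616 in Ly6Chi monocytes. The DAP10 gene Hcst, whose product lacks the ITAM, had ratios of 0.40 and 0.67. The genes nearest to Tyrobp in profile were Vav1, Wdr7 and Stx5a, at nearly equal distances of 0.064, 0.066 and 0.068. Of these Vav1 is a signalling protein downstream of Syk.

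**Figure D3:**
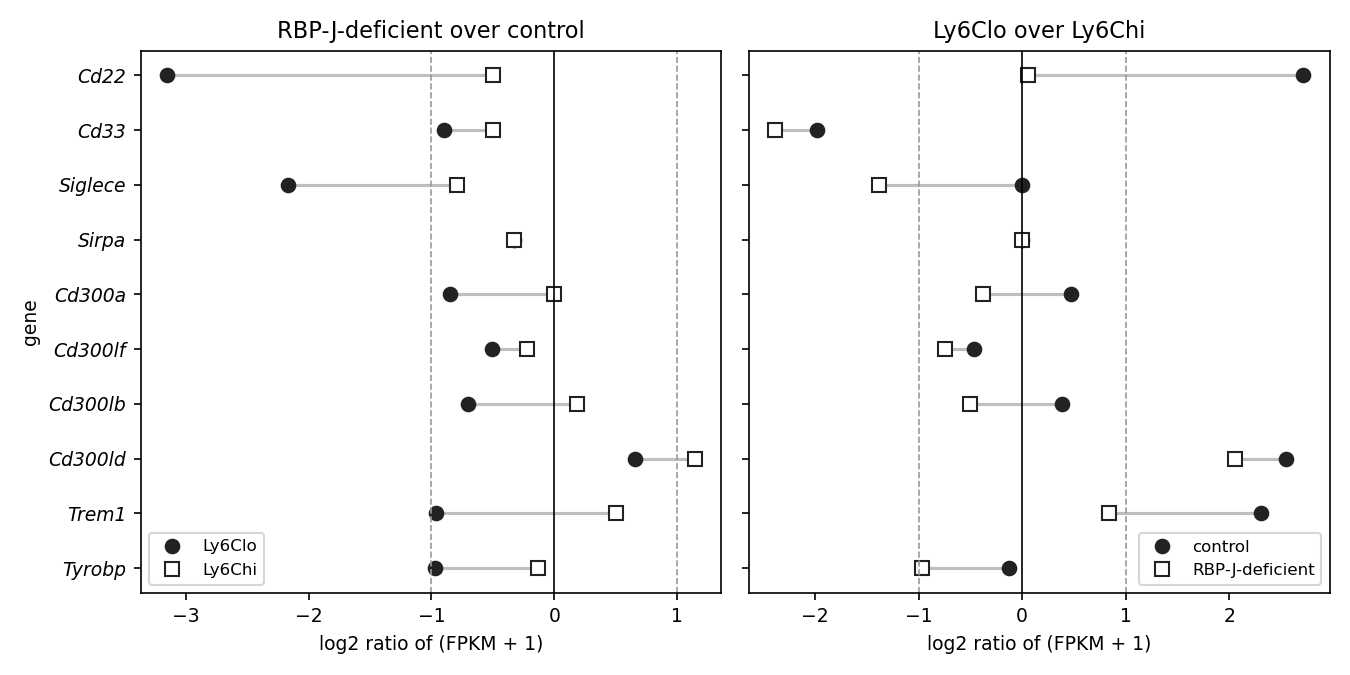
log2 ratio of (FPKM + 1) of the 10 genes, on the left for RBP-J-deficient over control mice in Ly6Clo (filled circles) and Ly6Chi monocytes (open squares), on the right for Ly6Clo over Ly6Chi monocytes in control (filled circles) and RBP-J-deficient mice (open squares), with dashed lines at 2-fold. The Ly6Clo genotype ratio lies below the Ly6Chi one for all of the 10 genes but Sirpa, whose ratios are both -0.33. The share of all expressed genes in that order is not given.

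Across the members the Ly6Clo ratio was below the Ly6Chi ratio for 9 of 10 genes. The share of all expressed genes in that order is not given here, so this count has no background to be read against. The gaps ran from -2.66 for Cd22, -1.47 for Trem1 and -1.38 for Siglece to -0.29 for Cd300lf, and Sirpa was at 0.01. These gaps come from 4 single libraries and were not tested. The direction in Ly6Clo monocytes was also read against GC content, since the log2 ratio over 6086 genes had a Spearman correlation with the GC content of the transcript of -0.36 in Ly6Clo and -0.28 in Ly6Chi monocytes, a description over genes that share the libraries. The members ranged from 46.6% GC for Cd300ld to 54.2% for Sirpa, against a median of 49.4% over expressed genes. With the trend subtracted, 4 members were at least 2-fold lower in RBP-J-deficient Ly6Clo monocytes, beside 9.76% of all genes: Cd22 at -3.05, Siglece at -2.001, Trem1 at -1.07 and Cd33 at -1.05, while Cd300ld was at 0.42.

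**Figure D4:**
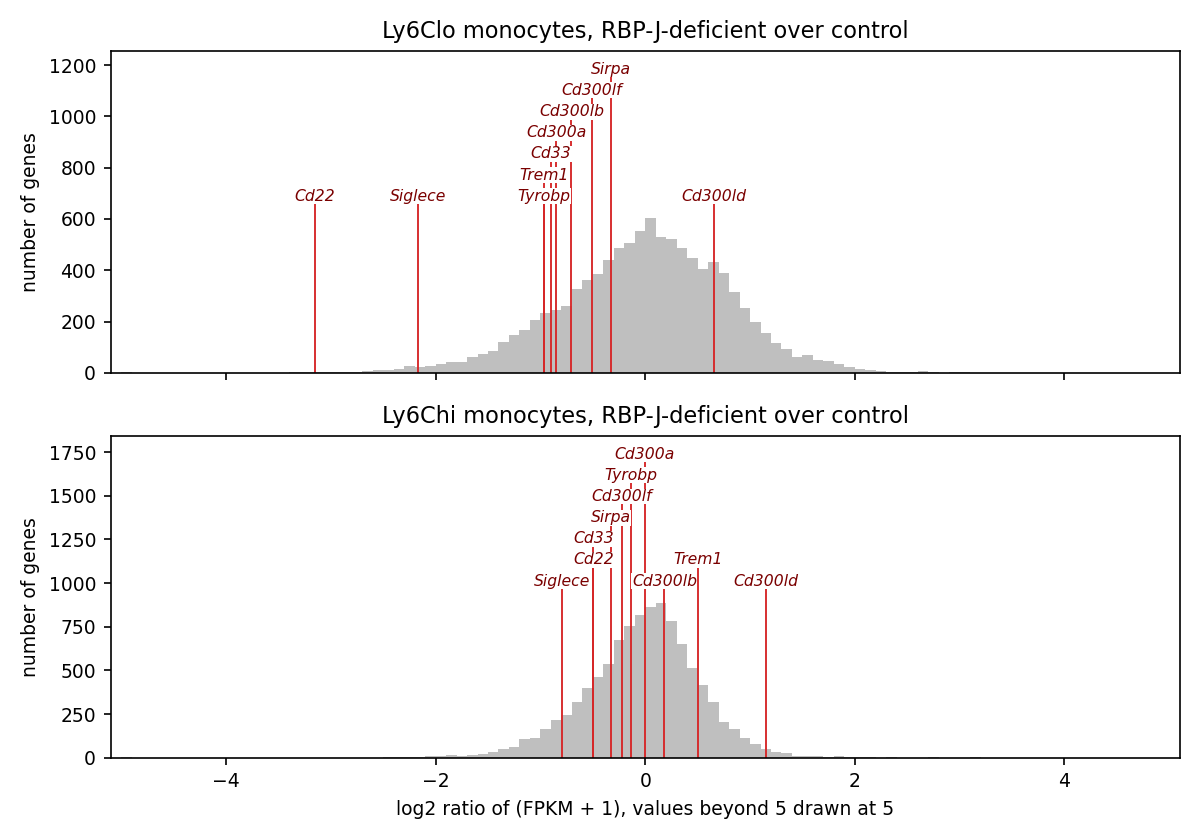
Histogram of the log2 ratio of (FPKM + 1) between RBP-J-deficient and control mice for the 10240 expressed genes, as the number of genes in bins along the x axis, in Ly6Clo (top) and Ly6Chi monocytes (bottom), with red lines at the 10 members. In Ly6Clo monocytes Cd22 at -3.15 and Siglece at -2.17 lie in the lower tail and 7 members lie between -0.97 and -0.33, while Cd300ld is at 0.66.

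The subsets were compared within each genotype. In control mice, 3 members were at least 2-fold higher in Ly6Clo than in Ly6Chi monocytes, Cd22 at a log2 ratio of 2.72, Cd300ld at 2.55 and Trem1 at 2.31, and 1 was at least 2-fold lower, Cd33 at -1.98. Of all genes 5.21% were at least 2-fold higher and 7.75% at least 2-fold lower. In RBP-J-deficient mice, 1 member was at least 2-fold higher in Ly6Clo monocytes, Cd300ld at 2.06, and 2 were at least 2-fold lower, Cd33 at -2.38 and Siglece at -1.38, against 8.41% and 10.6% of all genes. Cd22 was at 0.06 and Trem1 at 0.84 there. Siglece and Sirpa were both at -0.00 in control mice, and Tyrobp was at -0.13 in the former and -0.96 in the latter genotype. These comparisons share libraries with those of the genotypes.

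The other genes of the pathways were read from lists of family members and signalling partners. Over all genes in Ly6Clo monocytes, 8.97% were at least 2-fold higher and 11.1% at least 2-fold lower in RBP-J-deficient mice. Of 9 further CD300 genes 6 were found and 5 reached an FPKM of 1. In Ly6Clo monocytes 0 of these were at least 2-fold higher in RBP-J-deficient mice and 1 was at least 2-fold lower, the row shared by Cd300lh and Gm11710, at 15.2 and 4.33. Cd300e, an activating CD300 receptor of monocytes, had an FPKM of 987.4 and 563.6 in Ly6Clo and of 12.5 and 61.9 in Ly6Chi monocytes. The Ly6Clo library was the higher one in both genotypes, and the order of the genotypes was opposite in the subsets, with log2 ratios of -0.81 and 2.22. AF251705, matched by position to Cd300c2, had 462.3 and 649.2 in Ly6Clo and 155.3 and 232.7 in Ly6Chi monocytes, and was higher in RBP-J-deficient mice in both, as Cd300ld was. Of 6 further Siglec genes 2 reached an FPKM of 1, and 0 were at least 2-fold apart in Ly6Clo monocytes on the scale of (FPKM + 1). Siglecg was at 0.974 in control and 0.0236 in RBP-J-deficient Ly6Clo monocytes and at 0.661 and 1.45 in Ly6Chi monocytes, with ratios of -0.95 and 0.56, where the pseudocount of 1 weighs more than the values themselves in Ly6Clo monocytes. Siglec1, the macrophage sialoadhesin, was at 0.0131 and 0.161 in Ly6Clo and at 3.05 and 1.03 in Ly6Chi monocytes, and its Ly6Chi ratio was -1.002.

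All 7 further TREM genes were expressed. Their 2-fold counts in Ly6Clo monocytes stand beside 8.97% of all genes higher and 11.1% lower. Trem2, which pairs with DAP12 and binds lipids, was the 1 gene at least 2-fold apart in Ly6Clo monocytes, at 7.16 and 24.6 in the order control, RBP-J-deficient, a log2 ratio of 1.65. In Ly6Chi monocytes it was at 47.0 and 45.4. Treml4, a TREM-like receptor, was at 1018 and 513.0 in Ly6Clo and at 154.2 and 316.5 in Ly6Chi monocytes, with ratios of -0.99 and 1.03. Trem3 was at 474.6 and 558.3 in Ly6Clo and at 108.0 and 293.0 in Ly6Chi monocytes, with ratios of 0.23 and 1.43. Treml4 and Trem3 were the 2 genes of this list at least 2-fold higher in RBP-J-deficient Ly6Chi monocytes, where 2.64% of all genes were. Of 15 other paired receptors, by the ratio of (FPKM + 1), 1 was at least 2-fold higher and 1 at least 2-fold lower in Ly6Clo monocytes. The shares over all genes were 8.97% and 11.1%. Gp49a was at 14.8 and 65.2, a ratio of 2.07, and Cd244, a SLAM family receptor, was at 105.3 and 36.7, a ratio of -1.49. The inhibitory Lilrb4 was at 169.8 and 332.2, a ratio of 0.96.

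Of 9 effectors of ITIM receptors, 3 were at least 2-fold lower in RBP-J-deficient Ly6Clo monocytes and 0 were higher, beside 11.1% and 8.97% of all genes, with a median ratio of -0.60. Dok3, an inhibitory adaptor of myeloid and B cells, was at 174.1 and 32.9 in Ly6Clo and at 173.7 and 93.7 in Ly6Chi monocytes, with ratios of -2.37 and -0.88. Its levels followed an order like that of Siglece, alike in the control libraries and lowest in RBP-J-deficient Ly6Clo monocytes. Dok1 had a ratio of -1.59 and Inpp5d, which encodes SHIP-1, one of -1.22. Ptpn6, the SHP-1 phosphatase, was at 663.1 and 438.1 in Ly6Clo and at 505.8 and 450.2 in Ly6Chi monocytes, with ratios of -0.60 and -0.17. In Ly6Chi monocytes 0 of the 9 were at least 2-fold apart, beside 2.64% of all genes higher and 4.56% lower. The median of the 9 there was -0.56, against 0.00 over all genes.

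Of 22 effectors and adaptors of ITAM receptors 20 reached an FPKM of 1, and 2 of these were at least 2-fold lower in RBP-J-deficient Ly6Clo monocytes and 0 higher, beside 11.1% and 8.97% of all genes, with a median of -0.19. Pik3ap1, an adaptor that links receptors to phosphoinositide 3-kinase, was at 71.3 and 10.99, a ratio of -2.59. Card9, which carries Syk signals on to NF-κB, was at 13.2 and 5.05 in Ly6Clo and at 17.8 and 5.61 in Ly6Chi monocytes, with ratios of -1.23 and -1.51. It was the lower in RBP-J-deficient mice in both subsets. Fgr, a Src family kinase of myeloid cells, had a Ly6Clo ratio of -0.87. The median of all genes in Ly6Clo monocytes was 0.02. On the TPM scale, on which 17.7% of all genes were at least 2-fold lower and 5.24% higher in Ly6Clo monocytes, the numbers lower were 4 of the 9 ITIM and 6 of the 20 ITAM effectors, 3 of the 5 CD300 genes, 1 of the 2 Siglecs, 2 of the 7 TREM genes, 0 of the 4 SIRP genes with Cd47 and 3 of the 15 other paired receptors. The numbers higher on that scale were 1 of the TREM genes, 1 of the other paired receptors and 0 in each of the other lists. With the trend of GC content subtracted, 9.76% of all genes were at least 2-fold lower and 7.93% higher in Ly6Clo monocytes. The numbers lower were then 3 of the ITIM and 1 of the ITAM effectors. Among the receptors they were 1 CD300 gene, 1 TREM gene, 2 other paired receptors and 0 in the other lists. The numbers higher were the same as on the TPM scale.

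**Figure D5:**
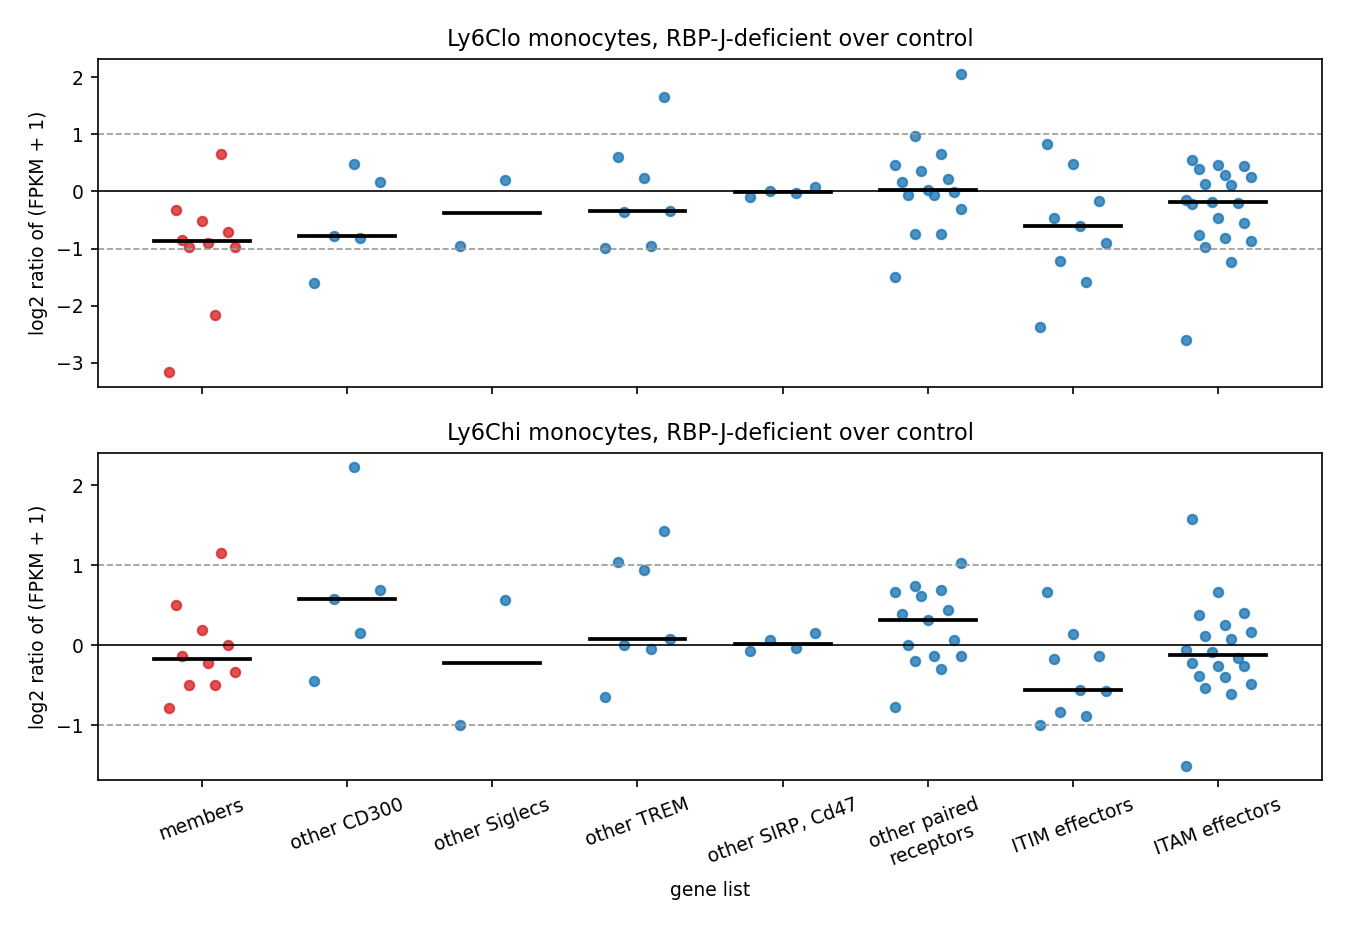
log2 ratio of (FPKM + 1) between RBP-J-deficient and control mice for each expressed gene of the 10 members (red) and in 7 lists of relatives and effectors (blue), in Ly6Clo (top) and Ly6Chi monocytes (bottom), with bars at the medians and dashed lines at 2-fold. In Ly6Clo monocytes the medians of the members, at -0.87, the other CD300 genes, at -0.78, and the ITIM effectors, at -0.60, are the lowest of the 8, and that of the SIRP genes with Cd47 is at -0.01.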

How the data were processed

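The authors deposited FPKM values of 4 mouse blood monocyte libraries in 1 table, with fold changes, test statistics, p-values and q-values of their own for each pair of libraries and a ratio column without a name. None of the latter was used. Per the submitters' processing notes the tools were CASAVA 1.8, TopHat2 2.1.0 and Cufflinks 2.2.1 and the build was mm10. The reads were paired-end and came from an Illumina HiSeq2500 instrument per the study's methods. Strandedness and mice per library are not given in the sources used here.

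Values of a library were read from its rows, and the log2 ratio of (FPKM + 1) was computed for 4 comparisons, RBP-J-deficient over control in each subset and Ly6Clo over Ly6Chi in each genotype. Each group holds 1 library, so no test was run, and genes at least 2-fold apart were counted beside the same count over the 10240 expressed genes, those that reached an FPKM of 1 in any library. Named genes were the members, Rbpj, B cell markers, the 3 nearest profiles of a member, and from each list up to 4 genes with the largest Ly6Clo genotype ratio among those with an FPKM of at least 1 in a Ly6Clo library and 2 with the highest mean. Of the latter, those that add to the account are printed. Other listed genes past 2-fold, the monocyte markers and the ratios within libraries were chosen after their values were seen. The members, the lists and the rules were chosen with earlier results of these data known. Some genes of the lists are not reported here and were left out of the counts. Alternatives were pseudocounts of 0.1 and 5, TPM, TPM without Actb (chosen after seeing the data), median centring, the fold thresholds of the methods on (FPKM + 1), 5.7 and 0.2, an FPKM of at least 1 in both libraries, and subtraction of a lowess trend with transcript GC content (fraction 0.3). A GC content was found for 94.9% of expressed genes. The GC procedure was tested on simulated data whose base levels held no low FPKM values and whose GC content was drawn at random. Its behaviour for members with low values was therefore not checked.

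Gene positions are the deposited loci written 1-based, and start sites, transcripts and overlaps came from GENCODE M21 and RefSeq annotation of GRCm38. Low FPKM values did not fall on steps of whole reads, so read counts were not recovered and no interval or floor is given. The scripts ran in Python 3.11.15 with pandas 2.3.3, numpy 2.4.6, statsmodels 0.14.6, scipy 1.17.1 and matplotlib 3.10.9.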

Additional observations from a re-analysis of the deposited data

Results flagged for a closer look

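For 2 members the single libraries of the subsets lay in opposite order, and these differences were not tested. Cd300lb had a log2 ratio of RBP-J-deficient over control mice of -0.70 in Ly6Clo and of 0.18 in Ly6Chi monocytes. Trem1 had -0.96 in Ly6Clo and 0.51 in Ly6Chi monocytes. Both kept these signs on the TPM scale, at -1.01 and 0.08 for Cd300lb and -1.26 and 0.44 for Trem1.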

How the results depend on the processing

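Of 64 recomputed member counts 49 stayed within 1.5 times the reported count. In Ly6Clo monocytes the number of members at least 2-fold lower in RBP-J-deficient mice was 2 as reported, beside 11.1% of all genes. It was 7 with TPM, beside 17.7%, and 4 with the GC correction, beside 9.76%. With a pseudocount of 0.1 it was 4, and with TPM without Actb 7. It was 1 with the thresholds of the methods or an FPKM of at least 1 in both libraries. Shares of all genes under settings other than TPM and the GC correction are not given, so the counts under them, here and below, have no background. In Ly6Chi monocytes the number lower went from 0 to 1 with a pseudocount of 0.1, and the number higher from 1 to 0 with the thresholds of the methods. For Ly6Clo over Ly6Chi in control mice the number lower went from 1 to 0 with a pseudocount of 5, the thresholds of the methods or an FPKM of at least 1 in both libraries. In RBP-J-deficient mice the number higher went from 1 to 0 with the thresholds of the methods, and the number lower from 2 to 0 with a pseudocount of 5 and to 1 with the thresholds of the methods or an FPKM of at least 1 in both libraries.

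Of 240 recomputed ratios of single members 213 kept their direction and their side of 2-fold, 17 passed 2-fold that had not, 3 no longer passed it and 7 changed sign, all of them near 0. For Ly6Clo over Ly6Chi monocytes these were Sirpa and Siglece in control mice with the GC correction, at 0.0650 and 0.0356, and, in RBP-J-deficient mice, Sirpa at -0.21 with TPM, -0.21 with TPM without Actb and -0.0181 with median centring, and Cd22 at -0.0198 with TPM and -0.0198 with TPM without Actb. Changes under the stricter thresholds and filters follow from their construction, and the cause of the others was not tested. No paired analysis was possible because each group holds 1 library. The depth of the libraries is unknown and limits mainly Cd33 and Cd22, which were below an FPKM of 1 in 2 of the 4 libraries.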
